A study of Mus musculus with 9 samples.

Results

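Urea cycle and amino acid catabolism enzymes were followed in mouse liver as 8 genes chosen by name, namely Nags, Cps1, Otc, Slc25a15, Ass1, Asl, Slc7a2 and Tat. Their names were carried by 13 of the 52151 entries of the deposited gene table. Each gene had 1 entry built on a known transcript, which gave 8 entries out of 26345 such entries with a gene name, and all 8 were tested. The 5 other entries held assembled transcripts only and were kept apart. They were listed by name with no cut on a measured value, although earlier results of these data were known when the list was made.

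The pair-fed group (PF) received an isocaloric control liquid diet, and the alcohol-fed group (AF) received the Lieber-DeCarli diet, a liquid diet that carries ethanol. Mice of the third group (AF+MNA) were given the Lieber-DeCarli diet together with a daily injection of 50 mg/kg MNA into the peritoneum, and the labels do not spell out what MNA stands for. Feeding lasted 5 weeks, each group had 3 liver libraries, and the age label was 8 weeks throughout. The strain label was C57BL/6 in PF and AF and read C57BL/7, C57BL/8 and C57BL/9 in the AF+MNA samples. The methods describe male C57BL/6J mice that were fasted before euthanasia, in PF and AF alike, and they say nothing of vehicle injections. Ribosomal RNA was depleted and strand-specific libraries were sequenced from both ends.

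The urea cycle turns ammonia released from amino acids into urea, and in mammals the full cycle runs in hepatocytes, most strongly in those near the portal vein. Its opening steps take place in mitochondria and its later steps in the cytosol, so ornithine and citrulline must cross the inner mitochondrial membrane. Transcription of these genes is known to respond to protein intake, fasting, glucagon and glucocorticoids, and Tat is a classical glucocorticoid-responsive gene.

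The genes lie on 6 chromosomes of the mouse build GRCm38, as annotated in GENCODE M21. Nags was located at chr11:102145513-102149477, Cps1 at chr1:67123026-67231259 and Otc at chrX:10252305-10321024. Ass1 was at chr2:31470207-31520672 and Asl at chr5:130011258-130029247. Slc25a15 at chr8:22375551-22398597, Slc7a2 at chr8:40862396-40922308 and Tat at chr8:109990437-109999803 share chromosome 8. Asl and Slc25a15 are on the minus strand, and the other 6 genes are on the plus strand.

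Several transcript classes were read at these genes, and circular RNAs (circRNAs) are shown here by the junction where a later exon is joined back to an earlier one. The set below is printed because most junction reads of the 8 genes came from Slc7a2 and Cps1. Lower case gives the last 30 bases of the donor exon, capitals give the opening 30 bases of the acceptor exon, and both were read from GENCODE M21 transcripts of GRCm38.
Slc7a2 circRNA of exons 2 to 8: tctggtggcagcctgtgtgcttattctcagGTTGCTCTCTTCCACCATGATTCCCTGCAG
Slc7a2 circRNA of exons 2 to 6: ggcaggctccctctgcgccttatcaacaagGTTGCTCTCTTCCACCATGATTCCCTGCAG
Slc7a2 circRNA of exons 2 to 4: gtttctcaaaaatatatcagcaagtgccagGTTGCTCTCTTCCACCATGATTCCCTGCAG
Cps1 circRNA of exons 22 to 34: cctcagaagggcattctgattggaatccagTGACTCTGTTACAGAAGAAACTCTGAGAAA
Cps1 circRNA of exons 22 to 25: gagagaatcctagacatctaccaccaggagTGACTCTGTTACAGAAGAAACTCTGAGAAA
All 3 Slc7a2 circRNAs shown enter the circle at the same acceptor, the start of exon 2, which holds the start codon after 16 bases. The 2 Cps1 circRNAs likewise share the start of exon 22 and lie within the coding sequence.

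Gene levels are in FPKM, sequenced fragments divided by transcript length and library size, so levels may be compared between genes. Averaged over the 9 libraries, Cps1 had the highest level of the 8 genes (1087 FPKM), followed by Ass1 (576 FPKM) and Tat (254 FPKM). Asl (95.6 FPKM), Otc (54.4 FPKM), Slc7a2 (29.7 FPKM), Slc25a15 (14.5 FPKM) and Nags (9.20 FPKM) followed. The ranges of every pair of neighbours in this order overlapped over the 9 libraries. Within libraries, Cps1 was above Ass1, Tat above Asl, Asl above Otc and Slc7a2 above Slc25a15 in 9 of 9, whereas Ass1 was above Tat in 8 of 9.

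**Figure D1:**
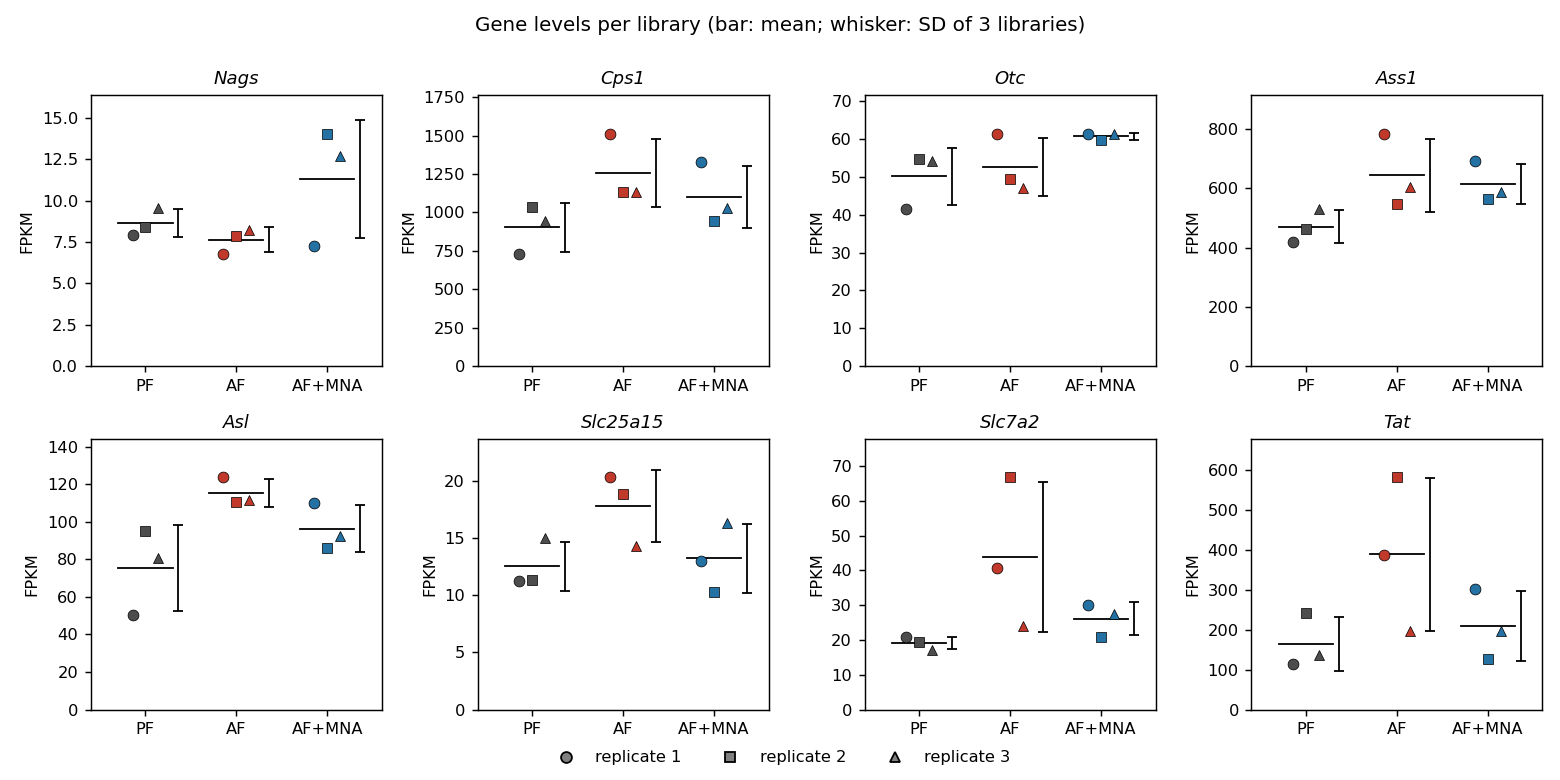
Level of each gene in FPKM (vertical axis, from 0) in the 3 libraries of PF, AF and AF+MNA; symbols mark replicates, the bar is the mean and the whisker the SD. Cps1, Ass1, Asl and Slc7a2 have all AF points above all PF points, and Tat and Slc7a2 have the widest AF spread relative to their means.

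Alcohol feeding was compared with pair feeding to see how the liver of the alcoholic liver disease model differs from its control. The mean level was higher in AF than in PF for 7 of the 8 genes, and lower for Nags. The study called a difference where the unadjusted p was under 0.05 and the log2 fold change exceeded 1 in either direction, and 2 genes passed this threshold, Slc7a2 and Tat, both higher in AF. Over all 12268 genes tested, 4.30% passed this threshold and 1.95% did so upward. At an unadjusted p under 0.05 alone, 4 of the 8 genes were higher in AF (5.10% of all genes), and 0 passed after Benjamini-Hochberg adjustment in limma (0.326% of all genes), with 4 at an unadjusted p under 0.05. The median log2 ratio was 0.49 over the 8 genes and -0.031 over all genes. In 4 genes every AF library was above every PF library, against 8.18% of all genes, and with 3 libraries against 3 an exact permutation test cannot give a p below 0.1. Leaving out AF replicate 1 took the count at an unadjusted p under 0.05 from 4 to 0, leaving out PF replicate 1 or PF replicate 3 took it to 1, and leaving out AF replicate 2 took it to 2. With the replicate number as a block it was 2.

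In the mitochondrial entry of the cycle, differences were uneven. Nags makes N-acetylglutamate, the compound that Cps1 needs to be active. Nags had 7.91, 8.43 and 9.57 FPKM (PF) against 6.79, 7.89 and 8.24 FPKM (AF), and the 2 groups overlapped (coefficient on log2(FPKM + 1) -0.16, 95% interval -0.47 to 0.16, limma adjusted p = 0.686). Cps1 forms carbamoyl phosphate from ammonia and bicarbonate and is the rate-limiting enzyme of the cycle. Cps1 had 729, 1037 and 946 FPKM (PF) against 1510, 1132 and 1131 FPKM (AF). All 3 AF libraries were above the highest PF library, and AF replicate 1 was set apart above the other two (log2 ratio 0.48, coefficient 0.48 with SE 0.22, limma adjusted p = 0.467).

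Otc joins carbamoyl phosphate with ornithine to make citrulline. It had 41.5, 54.7 and 54.2 FPKM (PF) against 61.2, 49.4 and 46.9 FPKM (AF). The groups overlapped, with PF replicate 1 lowest and AF replicate 1 highest of the 6. The coefficient was 0.067 with a 95% interval of -0.35 to 0.49 (limma adjusted p = 0.917), and its sign turned without PF replicate 1 (log2 ratio -0.053) or without AF replicate 1 (-0.058). Slc25a15 is the mitochondrial carrier that exchanges ornithine for citrulline. Slc25a15 had 11.2, 11.3 and 15.0 FPKM (PF) against 20.3, 18.8 and 14.3 FPKM (AF), so that AF replicate 3 fell below PF replicate 3 (log2 ratio 0.51, coefficient 0.48 with SE 0.18, limma adjusted p = 0.398).

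The cytosolic enzymes Ass1 and Asl had higher levels in AF without overlap. Ass1 condenses citrulline with aspartate, and it had 419, 464 and 529 FPKM (PF) against 783, 546 and 604 FPKM (AF). Its lowest AF library, replicate 2, was just above its highest PF library (log2 ratio 0.45, coefficient 0.44 with SE 0.20, limma adjusted p = 0.460). Asl splits argininosuccinate into arginine and fumarate. Asl had 50.4, 95.2 and 80.5 FPKM (PF) against 124, 110 and 111 FPKM (AF), so the AF libraries lay close together and the PF libraries were spread widely. Its log2 ratio was 0.61 (coefficient 0.65 with SE 0.24, limma adjusted p = 0.388), and 0.39 without PF replicate 1.

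Slc7a2 and Tat had the largest log2 ratios of the 8 genes. Slc7a2 is a transporter of cationic amino acids, arginine, lysine and ornithine, across the plasma membrane. It had 20.7, 19.6 and 17.1 FPKM (PF) against 40.7, 66.8 and 24.1 FPKM (AF). The PF libraries differed little, the AF libraries ranged from slightly above PF to over 3 times the PF mean, and the groups did not overlap. The mean rose 2.29 times (19.1 ± 1.83 to 43.9 ± 21.5 FPKM, SD, n = 3; log2 ratio 1.20, coefficient 1.04 with SE 0.35, limma adjusted p = 0.345). This call was lost on the p without PF replicate 3 (log2 ratio 1.12) or AF replicate 1 (1.25), and on the fold without AF replicate 2 (0.76).

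Tat, the liver enzyme that starts tyrosine breakdown by transamination, had 115, 241 and 137 FPKM (PF) against 387, 581 and 197 FPKM (AF). AF replicate 3 lay below PF replicate 2, so the groups overlapped, and AF replicate 2 was highest of the 9 libraries. The mean rose 2.36 times (164 ± 67.6 to 388 ± 192 FPKM, SD, n = 3; log2 ratio 1.24, coefficient 1.18 with SE 0.45, limma adjusted p = 0.393). The call was lost without PF replicate 1 (log2 ratio 1.04), PF replicate 3 (1.13), AF replicate 1 (1.24) or AF replicate 2 (0.83).

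**Figure D2:**
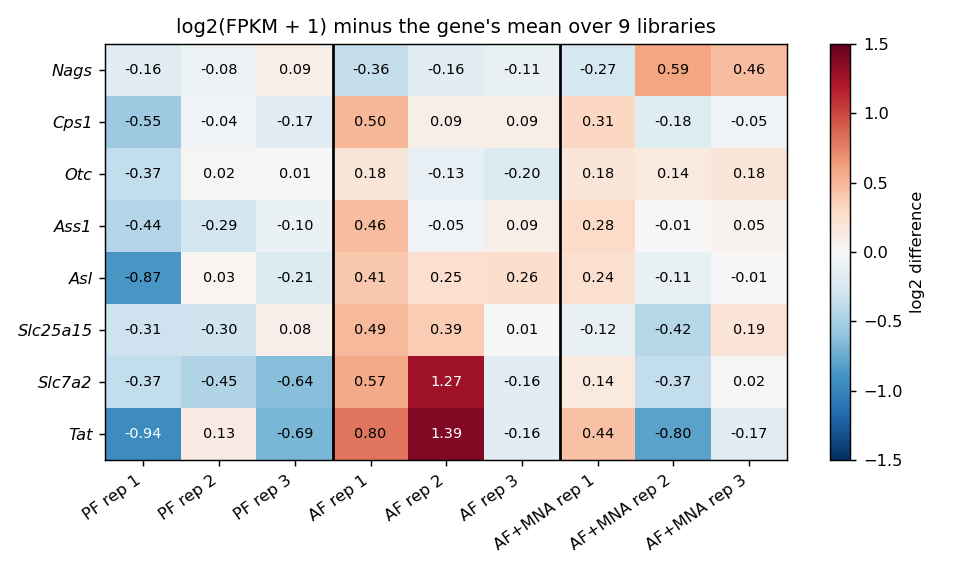
Each cell is log2(FPKM + 1) minus the mean of that gene over the 9 libraries (blue low, red high). PF replicate 1 is low in most rows, AF replicate 1 is high in most rows except Nags, and AF replicate 2 stands out in Slc7a2 (1.27) and Tat (1.39).

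Single libraries stood high or low in many of the genes at once. PF replicate 1 had the lowest level of its group in 7 of the 8 genes, the exception being Slc7a2. AF replicate 1 was highest of its group in 5 genes and AF replicate 3 lowest in 5. AF+MNA replicate 1 was highest of its group in 5 genes and AF+MNA replicate 2 lowest in 7. Summed over the 8 genes, the level was 1394 to 1932 FPKM in PF, 2137 to 2932 FPKM in AF and 1825 to 2539 FPKM in AF+MNA. The 8 genes thus made up 0.662% to 0.867% of all FPKM in PF, 0.920% to 1.45% in AF and 0.856% to 1.17% in AF+MNA, and Cps1 supplied the largest part. Variation within a group was widest for Tat, with a coefficient of variation of 41.1% in PF, 49.4% in AF and 42.1% in AF+MNA. For Slc7a2 the coefficient of variation was 9.58% in PF and 49.0% in AF.

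Library depth differed, with 1588 to 2545 circRNA junction reads per library and relative totals from 0.703 to 1. Both were lowest in AF+MNA replicate 3 and highest in AF+MNA replicate 1. AF replicate 3 and AF+MNA replicate 1 held 9433 and 8934 FPKM in assembled transcripts inside introns, against 2477 to 4937 FPKM in the other libraries. The 5 hepatocyte markers summed to 15002 to 20020 FPKM in PF, 13327 to 19743 FPKM in AF and 17805 to 20196 FPKM in AF+MNA, with AF replicate 2 lowest. The 5 Kupffer cell and macrophage markers summed to 56.5 to 68.8 FPKM in PF, 44.8 to 82.4 FPKM in AF and 56.8 to 74.4 FPKM in AF+MNA. Stellate cell markers summed to 28.0 to 29.1, 25.2 to 35.2 and 26.6 to 38.3 FPKM, endothelial markers to 19.7 to 24.3, 24.9 to 36.2 and 30.4 to 33.8 FPKM, and bile duct cell markers to 3.27 to 4.31, 4.86 to 9.12 and 3.34 to 6.33 FPKM, in the same order of groups. Erythroid markers summed to 200.2 to 279 FPKM in PF, 164 to 409 FPKM in AF and 177 to 261 FPKM in AF+MNA. Lymphocyte and neutrophil markers summed to at most 1.21 and 2.03 FPKM, and no marker of any list was at 0 in all 9 libraries. Endothelial and bile duct sums were higher in every AF library than in every PF library, as were several of the 8 genes. The endothelial gap was narrow (24.3 to 24.9 FPKM), and of the 5 endothelial markers Pecam1 alone did not overlap. Spp1 made up most of the bile duct sum, with 2.09 to 2.97 FPKM (PF) against 3.39 to 6.66 FPKM (AF). Sox9 also did not overlap, whereas Krt19, Krt7 and Epcam, too low to be tested, did. The part of these cell types in the result was not tested. In whole liver, fewer cells of a type and less RNA per cell cannot be told apart.

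The MNA group was compared with AF, with which it shares diet and feeding time. The mean was lower in AF+MNA than in AF for 6 of the 8 genes and higher for Otc and Nags. Past the threshold of the methods were 0 genes, against 1.98% of the 12214 genes tested, and 0 had an adjusted p under 0.05 in limma, against 0.0491%. At an unadjusted p under 0.05 there were also 0 of the 8 genes, against 5.22% of all genes in either direction. The count with such a p was 3 without AF replicate 3 and 1 without AF+MNA replicate 1 or AF+MNA replicate 3. The median log2 ratio was -0.23 over the 8 genes and 0.0077 over all genes. All AF+MNA libraries were below all AF libraries for Asl alone (4.58% of all genes). This comparison shares the AF libraries with the one above, so a high AF library raises the first difference and lowers the second.

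Asl had 110, 86.1 and 92.5 FPKM in AF+MNA, with replicate 1 just below the lowest AF library (log2 ratio -0.26, coefficient -0.26 with SE 0.15, limma adjusted p = 0.964).

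Slc7a2 had 30.1, 20.8 and 27.5 FPKM in AF+MNA, which overlapped AF replicate 3 (log2 ratio -0.75, 95% interval of the coefficient -1.50 to 0.25, limma adjusted p = 0.965). Tat had 301, 126 and 197 FPKM in AF+MNA, with replicates 2 and 3 at or below the lowest AF library (log2 ratio -0.90, 95% interval of the coefficient -1.98 to 0.28, limma adjusted p = 0.961). The AF spread of both genes entered these tests. Without AF replicate 3, the lowest AF library of both, Slc7a2 (log2 ratio -1.04) and Tat (log2 ratio -1.22) passed the threshold of the methods, and without AF replicate 2, the highest, the log2 ratios were -0.31 and -0.49 and neither passed.

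Of the remaining genes, Slc25a15 had 13.0, 10.3 and 16.3 FPKM in AF+MNA and overlapped AF (log2 ratio -0.43, coefficient -0.41 with SE 0.21, limma adjusted p = 0.940). Cps1 had 1326, 943 and 1028 FPKM, with replicate 1 inside the AF range and the other two below it (log2 ratio -0.19, limma adjusted p = 0.980). Ass1 had 690, 565 and 587 FPKM, all within the AF range (log2 ratio -0.070, limma adjusted p = 0.999). Its ratio turned to 0.094 without AF replicate 1.

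Otc and Nags had higher means in AF+MNA than in either other group. Otc had 61.2, 59.6 and 61.2 FPKM in AF+MNA, a coefficient of variation of 1.49% (log2 ratio to AF 0.21, 95% interval of the coefficient -0.13 to 0.56, limma adjusted p = 0.966). Nags had 7.29, 14.0 and 12.7 FPKM in AF+MNA, with replicate 1 inside the AF range and the other two above every PF and AF library. Its log2 ratio to AF was 0.57 (coefficient 0.47 with SE 0.24, limma adjusted p = 0.940), and it ranged from 0.39 without AF+MNA replicate 2 to 0.81 without AF+MNA replicate 1, of which the latter alone among the 6 left-out libraries gave an unadjusted p under 0.05.

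**Figure D3:**
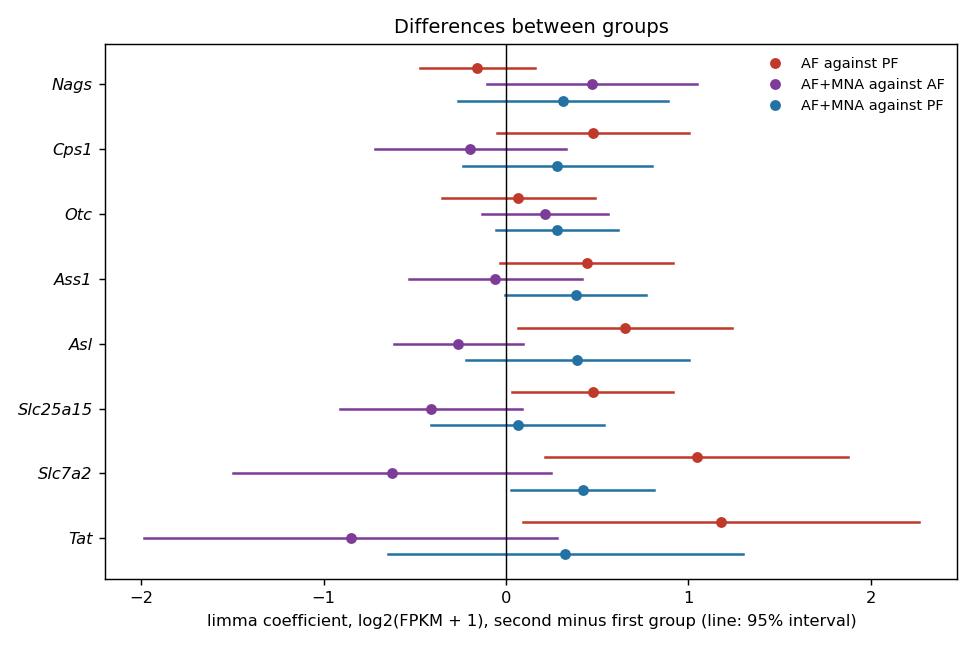
limma coefficient on log2(FPKM + 1) for each gene in the 3 comparisons, points with 95% intervals. In AF against PF the intervals of Asl, Slc25a15, Slc7a2 and Tat lie above 0, in AF+MNA against AF all 8 intervals include 0, and in AF+MNA against PF that of Slc7a2 lies above 0.

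Against PF, the mean of AF+MNA was higher for 8 of the 8 genes, and 0 passed the threshold of the methods (3.89% of the 12276 genes tested), nor had any an adjusted p under 0.05 in limma (0.432% of all genes). Slc7a2 alone had an unadjusted p under 0.05 and was higher, as were 6.52% of all genes (1.37 times the PF mean, coefficient 0.42 with SE 0.16, limma adjusted p = 0.325). Slc7a2 kept an unadjusted p under 0.05 without AF+MNA replicate 2, and lost it without any 1 of the other 5 libraries. All AF+MNA libraries were above all PF libraries for Otc, Ass1 and Slc7a2 (9.54% of all genes). The mean of AF+MNA lay between those of PF and AF for 6 of the 8 genes. The ratio to PF turned below 0 on the log2 scale for Tat without AF+MNA replicate 1 (-0.024) and for Slc25a15 without AF+MNA replicate 3 (-0.10). Both comparisons of AF+MNA rest on the same 3 libraries, and this one shares the PF libraries with AF against PF.

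Of 77 other enzymes and transporters of amino acid breakdown in 8 lists, 73 had an entry and 71 were tested. In AF against PF, 2 of the 71 were past the threshold of the methods and both rose, which is 2.82% of them against 4.30% of all genes. Their median log2 ratio was 0.062, with 43 means higher and 28 lower in AF, and 0 had an adjusted p under 0.05 in limma, with 7 at an unadjusted p under 0.05 (11.7% of all genes had such a p). The 2 genes were Sds and Sdsl, serine dehydratase and its paralogue, which turn serine into pyruvate and ammonia. Sds had 9.01, 16.7 and 21.04 FPKM (PF) against 32.8, 42.2 and 25.0 FPKM (AF) (log2 ratio 1.10, limma adjusted p = 0.307). Sdsl had 1.16, 2.01 and 1.89 FPKM (PF) against 4.11, 5.38 and 2.80 FPKM (AF) (log2 ratio 1.28, limma adjusted p = 0.228). Neither overlapped between the groups, and in both AF replicate 2 was the highest library. The call of Sds was lost without PF replicate 1 (log2 ratio 0.82) or AF replicate 2 (0.89). In AF+MNA all 3 libraries of Sds were below all AF libraries (22.0, 18.6 and 18.3 FPKM, log2 ratio -0.76), whereas those of Sdsl overlapped AF (1.88, 3.03 and 3.27 FPKM, log2 ratio -0.59).

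By list, the enzymes that supply nitrogen to the cycle had a median log2 ratio of 0.21 in AF against PF, with 8 of 11 tested genes at a higher mean and 0 past the threshold. Histidine breakdown had a median of 0.25 (4 of 4 higher) and serine, glycine and threonine breakdown a median of 0.25 (8 of 10 higher, 2 past the threshold). Medians were near that of all genes for branched-chain amino acid breakdown (0.018, 17 genes), lysine and tryptophan breakdown (-0.074, 9 genes), proline and hydroxyproline breakdown (0.0072, 3 genes) and the plasma membrane transporters (0.094, 10 genes). The enzymes that follow and precede Tat in phenylalanine and tyrosine breakdown had a median of -0.12, with 3 of 7 higher and 0 past the threshold. In AF+MNA against AF and in AF+MNA against PF, 0 of the 71 genes passed the threshold.

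**Figure D4:**
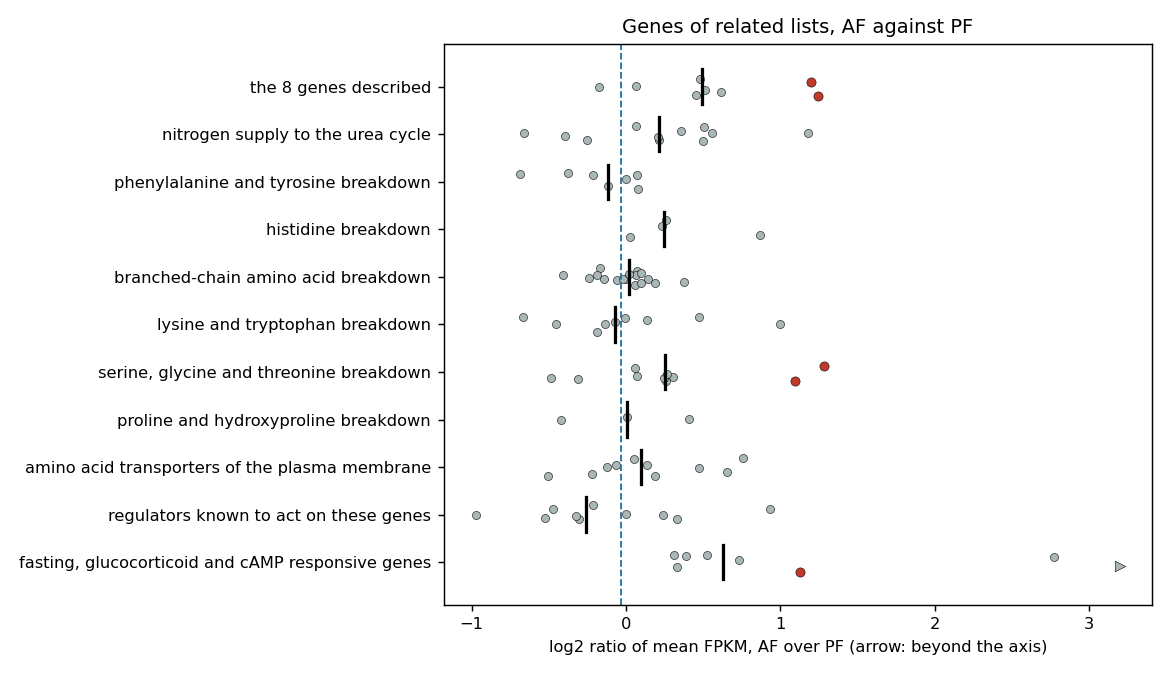
log2 ratio of mean FPKM, AF over PF, for each tested gene of the 8 described here and of the related lists (black bar, median of the list; dashed line, median of all genes; red, past the threshold of the methods). The 8 genes have a median of 0.49, and among the other breakdown lists Sds and Sdsl alone pass the threshold; the arrow is Pdk4, beyond the axis.

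Regulators known to act on these genes, among them the glucocorticoid receptor and C/EBP alpha, had a median log2 ratio of -0.26 in AF against PF, with 3 of 10 means higher and 0 past the threshold. Of the 10, Ppargc1a, a transcriptional coactivator of gluconeogenesis, was the 1 with an unadjusted p under 0.05 and was higher (log2 ratio 0.93). Genes that respond to fasting, glucocorticoids or cAMP had higher means in 8 of 8 (median 0.63), and Sgk1, a serum- and glucocorticoid-regulated kinase, passed the threshold. Sgk1 had 2.07, 3.20 and 2.62 FPKM (PF) against 7.22, 6.16 and 3.83 FPKM (AF) (log2 ratio 1.13, limma adjusted p = 0.252), and its call was lost without PF replicate 1 (0.98) or AF replicate 1 (0.93). In AF+MNA against AF the means of this list were lower in 8 of 8 (median -0.40), with 0 past the threshold. AF replicate 2, the highest library for Tat and Slc7a2, also had the highest Igfbp1 (161 FPKM against 7.99 to 36.6 FPKM elsewhere) and Pdk4 (23.97 FPKM against 0.24 to 11.5 FPKM elsewhere). Igfbp1 was named after its values were seen, and the part of this library's state in the result was not tested.

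The pattern of each gene past the threshold was compared with that of the 3599 other genes averaging 5 FPKM or more, as the root mean square difference of centred log2(FPKM + 1) over the 9 libraries. Closest to Tat were Trp53inp1 (0.30), Got1 (0.30) and Gpcpd1 (0.36), whereas Tat itself varied by 0.73 about its own mean. Got1, the cytosolic aspartate aminotransferase, had 58.3, 103 and 105 FPKM (PF), 219, 289 and 94.1 FPKM (AF) and 157, 76.8 and 68.8 FPKM (AF+MNA). As with Tat, AF replicates 1 and 2 were high and AF replicate 3 was in the PF range, a likeness that follows from the pick by pattern. Closest to Slc7a2 were Aass (0.24), Gm12840 (0.26) and Gm26809 (0.26), whereas Slc7a2 itself varied by 0.56. Aass, the enzyme that starts lysine breakdown, had 22.3, 25.5 and 26.3 FPKM (PF), 39.5, 80.9 and 27.8 FPKM (AF) and 33.6, 31.5 and 46.2 FPKM (AF+MNA). Aass was also highest in AF replicate 2, which likewise follows from the pick.

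Circular RNAs were the readout at these genes that is separate from FPKM. The table held 28 circRNAs from 6 of the 8 genes, 20 made of exons and 8 of introns, with 99 junction reads in all. Otc and Nags had none. Of the 28, 21 were seen in a single library (75%), as were 75.7% of all 4486 circRNAs. Both ends of all 20 exonic circRNAs fell on exon ends of the host transcript. Slc7a2 had 41 of the reads and Cps1 had 37.

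Slc7a2 gave 1, 0 and 0 junction reads (PF), 8, 6 and 10 reads (AF) and 10, 6 and 0 reads (AF+MNA). All AF libraries were above all PF libraries, and AF+MNA replicate 3 had none. That library had the lowest relative total (0.703) and held 1 of the 99 junction reads of the 8 genes. Scaled by library totals, AF had 23.7 times the reads of PF, with an exact 95% interval of 3.87 to 976 that covers counting error only, since 1 read was seen in PF. Most of these reads belonged to the circRNA of exons 2 to 8, printed above, at chr8:40898937-40911097, which spans 7 of the 12 exons of its host transcript and is 1314 bases long. It had 0, 0 and 0 reads (PF), 4, 4 and 8 reads (AF) and 9, 1 and 0 reads (AF+MNA). A count of 0 over the PF group allows up to 3 reads, which puts the AF reads, taken as exact, at 5.28-fold or more. This bound covers counting error only, not the spread between libraries. The circRNA was picked as the Slc7a2 one with the most reads, all of them in the alcohol groups. The bound therefore describes these reads and is no test of a difference.

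This circRNA had an edgeR p of 0.00851 in AF against PF, and its adjusted p over the 335 circRNAs tested was 0.713. It entered the test only through its AF reads, since a circRNA had to be present in 3 of the 6 libraries. None of the 335 circRNAs had an adjusted p under 0.05 in edgeR (0%) or in DESeq2, while 20 (5.97%) in edgeR and 5 in DESeq2 had an unadjusted p under 0.05. In AF+MNA against AF the p was 0.513 (adjusted p = 0.978). Of the 5 exonic circRNAs of Slc7a2, 4 started at exon 2, and 3 of these 4 had at most 4 reads each. The linear Slc7a2 level and the circRNA did not rank the AF libraries alike, since replicate 3 had the lowest FPKM and the most junction reads.

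**Figure D5:**
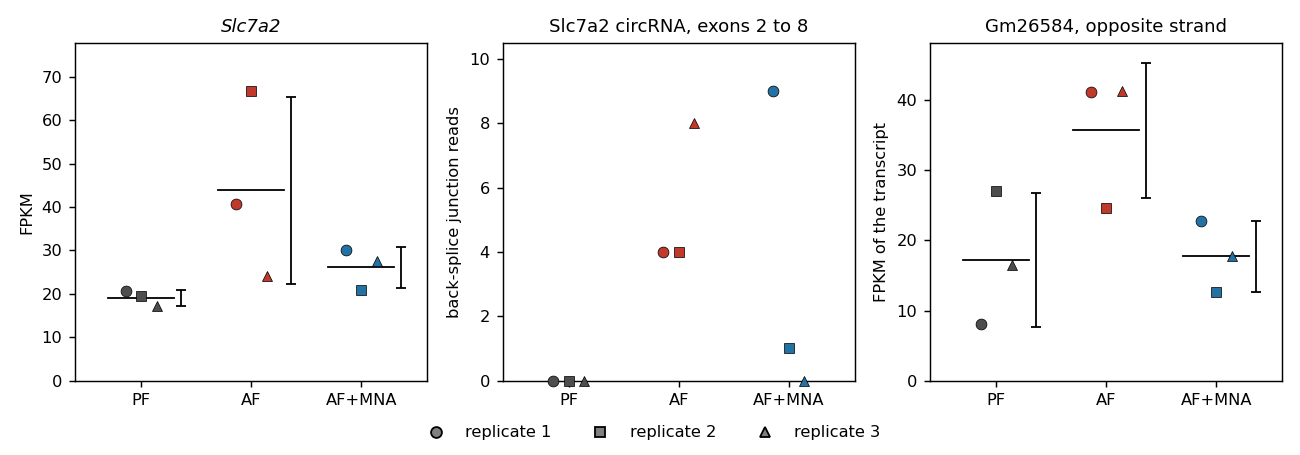
Slc7a2 level (left, FPKM), junction reads of its circRNA of exons 2 to 8 (middle) and level of the Gm26584 transcript on the opposite strand (right, FPKM) in each library; bars and whiskers are mean and SD in the FPKM panels. The circRNA has 0 reads in all PF libraries and 4, 4 and 8 in AF, and Gm26584 is lower in all AF+MNA libraries than in all AF libraries.

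Cps1 gave 12 circRNAs but no difference between groups was detectable at this depth. Its junction reads were 2, 3 and 8 (PF), 7, 1 and 3 (AF) and 8, 4 and 1 (AF+MNA). Scaled by library totals, AF had 0.837 times the reads of PF (exact 95% interval 0.340 to 2.03, counting error only), while linear Cps1 had 1.39 times the PF mean. The junction ratio rests on single libraries, since PF replicate 3 (8 reads) and AF replicate 1 (7 reads) held most reads of their groups. The circRNA of exons 22 to 34, at chr1:67195143-67220601, had 1, 2 and 0 reads (PF), 5, 0 and 0 reads (AF) and 6, 0 and 0 reads (AF+MNA), so replicate 1 held most of them in both alcohol groups. Its edgeR p in AF against PF was 0.670 (adjusted p = 0.948). Tat had 4 circRNAs with 6 reads, 0 of them in PF, 5 in AF and 1 in AF+MNA, too few for a test.

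Overlapping lncRNA transcripts were found at Slc7a2, Nags and Asl, all on the opposite strand. Whether strand was used in making the FPKM values is not given in the sources used here, so reads of overlapping transcripts may not be fully told apart. Gm26584 (ENSMUST00000180551, chr8:40862395-40865647) overlaps the 5′ end of Slc7a2. Its transcript had 8.07, 27.1 and 16.4 FPKM (PF), 41.2, 24.6 and 41.3 FPKM (AF) and 22.7, 12.7 and 17.8 FPKM (AF+MNA). It was past the threshold of the methods in AF against PF (log2 ratio 1.05, limma adjusted p = 0.598), as were 2.47% of the 18310 lncRNA transcripts tested, although PF replicate 2 was above AF replicate 2. In AF+MNA against AF it passed downward without overlap (log2 ratio -1.01, limma adjusted p = 0.591), as 1.75% of 19752 transcripts passed in either direction. The gene entry of Gm26584, which pools its transcripts, had smaller log2 ratios of 0.40 and -0.79 in the same comparisons and passed in neither. The AF against PF call of the transcript was lost without PF replicate 1, AF replicate 1 or AF replicate 3, and the AF+MNA against AF call without AF replicate 3.

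At Nags, the lncRNA gene Gm11586 was split between 2 transcripts. The known transcript (ENSMUST00000123060, chr11:102145549-102146246) had 0.00985 FPKM in PF replicate 1, 4.72 FPKM and 3.99 FPKM in AF+MNA replicates 1 and 3, and was listed at 0 in the other 6 libraries. An assembled transcript of the same gene had 1.71, 4.82 and 3.47 FPKM (PF) against 4.31, 3.97 and 6.72 FPKM (AF), and in AF+MNA it was listed at 0 where the known transcript was present and had 4.79 FPKM in replicate 2. Each passed the threshold in AF+MNA against AF (limma adjusted p = 0.591 for both), in opposite directions. Both calls were lost when a single library was left out, as counted below. In AF+MNA against PF the known transcript passed upward (limma adjusted p = 0.593) and the assembled one did not pass. The gene entry that pools them had 4.20, 3.87 and 6.55 FPKM in AF and 2.02, 4.67 and 1.71 FPKM in AF+MNA and did not pass (log2 ratio -0.80, limma adjusted p = 0.940). Nags itself was high in AF+MNA replicates 2 and 3, of which replicate 3 held the known Gm11586 transcript and replicate 2 the assembled one.

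Promoter sequence from RefSeq (GRCm38.p6, from 250 bases before to 50 after the start) was matched for 5 of the 8 genes, Otc, Ass1, Nags, Tat and Slc25a15, the last with 2 starts. That of Tat is printed because Tat had the largest log2 ratio in AF against PF, at chr8:109990186-109990485 on the plus strand, with CCAAT in capitals on either strand (ATTGG on the other).
Tat promoter: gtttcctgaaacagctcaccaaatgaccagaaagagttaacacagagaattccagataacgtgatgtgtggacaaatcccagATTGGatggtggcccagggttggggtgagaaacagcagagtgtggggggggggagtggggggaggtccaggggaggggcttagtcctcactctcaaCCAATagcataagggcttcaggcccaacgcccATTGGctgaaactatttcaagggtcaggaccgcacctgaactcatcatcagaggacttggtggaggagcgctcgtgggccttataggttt
The 3 matches lie 168, 72 and 40 bases before the start. CCAAT on either strand was found in this 1 of the 6 promoters and in 37.4% of all 32851 promoters of the same length. TATAAA on the forward strand (8.32% of all promoters), TGACGTCA on both strands (1.79%) and TGTTCT on both strands (19% of all promoters) were in 0 of the 6 windows. These are matches of letters in a short window and say nothing of factor binding.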

How the data were processed

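RNA of 9 mouse liver samples was measured by RNA sequencing, with 1 library per sample, from groups of 6 mice for PF and AF in the methods, which do not say which mice were sequenced or whether any were pooled, so p-values measure the spread between these libraries. The authors made the deposited FPKM values of genes and lncRNA transcripts with StringTie 1.3.4, after cutadapt 1.9 and HISAT2 per the labels. The deposited lncRNA table also holds coverage per transcript, which was used for depth, and CPC and CNCI score columns by the authors, which were read only to describe the file. For circRNAs the deposited values are raw counts of reads across back-splice junctions, and the deposited scaled signal gave library totals. Genome build and circRNA caller are not given in the sources used here; of the known lncRNA transcripts, 7708 of 7841 found in GENCODE M21 had the same position. All per-sample columns matched a sample.

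Genes averaging 0.5 FPKM or more in the 6 libraries of a comparison (0.1 FPKM for lncRNA transcripts), limited to named entries built on known transcripts, were tested as log2(FPKM + 1) with limma 3.58.1 (intensity trend, two-sided, Benjamini-Hochberg over all genes). A log2 ratio is that of the group mean FPKMs, and a coefficient understates changes of low genes. The study's threshold for lncRNAs was applied to genes. Junction counts were tested with edgeR 4.0.16 (quasi-likelihood, 3 of 6 libraries, library totals as sizes) and DESeq2 1.42.0 as an alternative. Depth of FPKM values is not given as counts, so precision rests on replicates. R 4.3.3, Python 3.11.15 and matplotlib 3.10.9 were used, and the tests were checked on simulated data with seed 7.

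The 8 genes and the lists were chosen with earlier results of these data known. Genes named beside the 8 were list genes past the threshold, at most 12 a comparison. To each of the 8 that passed it, the 3 closest patterns (average 5 FPKM or more) were added. Other genes did not pass or were too low to be tested, and were named after their values were seen. These are Ppargc1a, Hbb-bs, Clec4f, Vsig4, Adgre1, Igfbp1, Hal, Gls2, Pck1, Pecam1, Spp1, Sox9, Krt19, Krt7, Epcam, Cyp2f2, Aldh1b1 and Hsd17b13. Alternatives were a pseudocount of 0.1, other minimum levels, libraries scaled to the same median or sum, no intensity trend, all 9 libraries, the coefficient as fold change, a replicate block and each library left out; for circRNAs TMM, DESeq2 and every circRNA with a read. The log2 medians of all genes moved little with scaling. Entries of assembled transcripts only were left out of the comparisons. A further gene is not reported here.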

Additional observations from a re-analysis of the deposited data

Results flagged for a closer look

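Entries that carry the name of 1 of the 8 genes but hold assembled transcripts only were outside the comparisons, and 4 of the 5 had a value above every PF library. The rule that flagged them looked for values above PF only. The entry named Otc was listed at 2.30 FPKM in AF replicate 3 and 1.98 FPKM in AF replicate 2, against 0.12 FPKM in PF replicate 1 and 0 in the other 6 libraries. The entry named Ass1 (2.07 FPKM), that named Tat (2.01 FPKM) and 1 named Asl (1.63 FPKM) were listed above 0 in AF replicate 3 alone. The Asl entry is a single exon on the opposite strand, at chr5:130025346-130026129. AF replicate 3 is also the library with the most FPKM in assembled intron transcripts (9433 FPKM), and its part in these entries was not tested. The values are small beside the main entries of Ass1 (604 FPKM), Tat (197 FPKM) and Asl (111 FPKM) in the same library. The entry not flagged, another named Asl, was highest in PF. It had 0, 0.69 and 2.05 FPKM (PF), 0, 0.82 and 0.35 FPKM (AF) and 0 in AF+MNA.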

How the results depend on the processing

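Counts over the 8 genes depended mostly on single libraries. Past the threshold of the methods, leaving out a library gave 0 to 2 genes in AF against PF and 0 to 2 in AF+MNA against AF, the 2 arising without AF replicate 3. At an unadjusted p under 0.05 it gave 0 to 3, 0 to 3 and 0 to 1 genes in AF against PF, AF+MNA against AF and AF+MNA against PF. For overlapping lncRNA transcripts past the threshold it gave 0 to 1, 0 to 3 and 0 to 2. In AF+MNA against PF the 1 gene with such a p became 2 with a pseudocount of 0.1, a mean of at least 2 FPKM, the same median or no intensity trend, and 0 with all 9 libraries. The cause was not tested. In AF against PF the count was 6 with no intensity trend, 5 with the same median or all 9 libraries and 3 with the same sum. The replicate number as a block took this count from 4 to 2 in AF against PF and from 1 to 0 in AF+MNA against PF, and overlapping lncRNAs in AF+MNA against PF from 1 to 2, as did a pseudocount of 0.1. Deviations of same-numbered libraries correlated by -0.08 to 0.06, and those of libraries with unlike numbers by -0.12 to 0.097. No pairing was thus seen over all genes, but a pairing that acts on some genes would not show in these correlations. Leaving out a library, the log2 ratio ranged over both signs for Otc in AF against PF (-0.058 to 0.14, below 0 without PF replicate 1, at -0.053, or AF replicate 1), for Ass1 in AF+MNA against AF (-0.18 to 0.094, above 0 without AF replicate 1), and in AF+MNA against PF for Tat (-0.024 to 0.73, below 0 without AF+MNA replicate 1) and Slc25a15 (-0.10 to 0.23, below 0 without AF+MNA replicate 3). Adjusted p-values of the 8 genes stayed at 0.132 or more under every alternative, and member circRNAs with an adjusted p under 0.05 stayed at 0. FPKM values carry no counts, so depth limits of single genes are unknown, and most circRNAs of the 8 genes had too few reads to test.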

Other observations

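Liver zonation genes were also read, since urea cycle genes are periportal. Of 7 periportal genes, 5 had higher means in AF than in PF (median log2 ratio 0.33), and Sds alone passed the threshold of the methods. Of 8 tested pericentral genes, 5 had higher means in AF (median log2 ratio 0.061) and 0 passed. In AF+MNA against AF the periportal median was -0.18 (2 of 7 higher) and the pericentral median 0.19 (6 of 8 higher), with 0 past the threshold in either list. Sds, Hal, Gls2 and Pck1 stand in the periportal list and in another list too. The remaining periportal genes went both ways in AF against PF, with log2 ratios of -0.12 (Cyp2f2), -0.85 (Aldh1b1) and 0.25 (Hsd17b13).

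Foxa2, a hepatocyte transcription factor, was the list gene past the threshold in AF+MNA against AF. It had 1.11, 0.93 and 1.15 FPKM (AF) against 2.42, 9.69 and 3.56 FPKM (AF+MNA) (log2 ratio 2.30, limma adjusted p = 0.940, and 1.49 without AF+MNA replicate 2), and PF replicate 1 had 3.31 FPKM. Pdk4, a kinase that restrains pyruvate oxidation, rose in AF+MNA against PF, from 0.40, 0.27 and 0.24 FPKM to 3.53, 11.5 and 5.59 FPKM (log2 ratio 4.50, limma adjusted p = 0.0730). Without AF+MNA replicate 2 its log2 ratio was 3.91. AF had 0.76, 23.97 and 1.67 FPKM, also above every PF library (log2 ratio 4.86), but did not pass. Most of the AF mean came from AF replicate 2. Alas2, the erythroid enzyme that starts haem synthesis, had 37.2, 43.3 and 41.4 FPKM (PF), 6.66, 18.2 and 8.71 FPKM (AF) and 7.54, 24.7 and 22.0 FPKM (AF+MNA), lower in both alcohol groups without overlap (log2 ratio -1.86 and -1.17), the second call being lost without PF replicate 2 (-1.12), PF replicate 3 (-1.16) or AF+MNA replicate 1 (-0.80). The other erythroid marker tested, Hbb-bs, a beta-globin gene, did not pass, with a log2 ratio of 0.43 in AF and 0.028 in AF+MNA against PF. Marco, a scavenger receptor of macrophages, passed the threshold upward in AF (log2 ratio 1.25) and in AF+MNA (log2 ratio 1.57) against PF, while the other 4 genes of its list did not pass. The AF call of Marco was kept without PF replicate 1 or AF replicate 3 alone among the 6 libraries, and its log2 ratio was 0.88 without AF replicate 2. Of the other 4, Clec4f (-0.64), Vsig4 (-0.52) and Adgre1 (-0.23) had negative log2 ratios in AF against PF, with every AF library below every PF library for Vsig4, and the median of the list was -0.23.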
